A study of Mus musculus with 4 samples.

Results

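The 10 genes described here encode secreted factors linked to hypoxia and to blood vessel growth. They are 4 ligands of the VEGF family (*Vegfa*, *Vegfb*, *Vegfc* and *Pgf*), adrenomedullin (*Adm*), both stanniocalcins (*Stc1* and *Stc2*), angiopoietin-like 4 (*Angptl4*) and the thrombospondins *Thbs1* and *Thbs2*. They were chosen by name, and all 10 were found among the 39179 genes counted in each library. Gene expression was measured by RNA-seq in B16F1, an established mouse melanoma cell line. Parental B16F1 cells, which are usually grown on rigid 2D dishes, served as control cells (2 libraries). The other group consisted of tumor repopulating cells (TRCs), which are the cells that form spheroids from single B16F1 cells in soft 3D fibrin gels of 90 Pa stiffness and were isolated on day 5 (2 libraries). Both groups come from 1 cell line, and selection of surviving cells and growth in the gel cannot be told apart in this design. In both groups the libraries carry the numbers 1 and 3. Nothing in the labels says that they came from separate cultures, so the p-values rest only on the spread between these libraries, which may be technical. That spread was estimated partly across all genes, not from each gene alone.

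Cells short of oxygen stabilise the transcription factor HIF-1, whose alpha subunit is otherwise marked by prolyl hydroxylases and removed through VHL. HIF-1 activates genes of glycolysis and also genes of secreted factors, of which *Vegfa* is the best known. VEGF-A acts on endothelial cells through the receptors *Flt1* and *Kdr*, VEGF-B and placental growth factor (*Pgf*) bind *Flt1*, and VEGF-C acts mainly through *Flt4* on lymphatic vessels. Adrenomedullin is a vasodilating peptide, the stanniocalcins are glycoproteins that inhibit the protease PAPP-A, ANGPTL4 inhibits lipoprotein lipase, and the thrombospondins are matrix proteins that restrain vessel growth through *Cd36* and *Cd47*.

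Between 35948295 and 43511554 counts fell on genes per library, and 3 counts, taken as the limit of detection, correspond to 0.0675 to 0.0850 CPM (counts scaled to the library size, with edgeR's TMM factors). That limit covers counting error only. Of the melanocyte markers 7 of 7 were tested, and their summed level was between 15711.5 and 26669.3 CPM. Among them *Dct*, an enzyme of melanin synthesis, rose by 1.08 on the log2 scale, a call not made by the quasi-likelihood test without a replicate block. The summed level of 9 endothelial markers was 11.4 and 6.23 CPM in parental libraries 1 and 3 and 5.70 and 9.90 CPM in TRC libraries 1 and 3. Most of it was *Egfl7*, at 4.98 to 9.83 CPM, and *Vwf*, at 0.368 to 2.45 CPM. *Cdh5*, *Tie1*, *Emcn* and *Cldn5* were at 0 counts in every library. Leukocyte markers summed to between 1.71 and 4.97 CPM, mostly *Cd68* at 1.59 to 4.12 CPM, with *Ptprc*, *Adgre1*, *Itgam* and *Cd3e* at 0 throughout. Fibroblast markers summed to between 3.12 and 11.4 CPM, and 1 of them, *Col1a2*, was lower in TRCs.

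Transcripts of 5 of the 10 factors rose in TRCs, namely *Pgf*, *Stc1*, *Thbs2*, *Vegfa* and *Adm*, with fold changes between 3.57 and 37.1. For *Vegfb*, *Vegfc* and *Thbs1* the difference did not pass the test, and *Stc2* and *Angptl4* had next to no counts and were not tested. The test was edgeR's exact test on counts with Benjamini-Hochberg adjustment over the 11483 genes tested (FDR), and a gene was called at FDR under 0.05. Among all genes tested 15.9% were called, 8.81% higher and 7.05% lower in TRCs, so the 5 factors called higher stand beside a background of 8.81%. *Pgf* was tested only through its TRC libraries, since both parental libraries were below 1 CPM. With a filter of 1 CPM in 3 or more libraries it was not tested and 4 of 7 factors were called higher, and with no filter 4 of 9 were. In edgeR's quasi-likelihood test, with or without a replicate block, and in DESeq2's Wald test 3 of 8 were called higher, and *Vegfa* and *Adm* were not among them. No factor was called lower, against 1 with an unadjusted p under 0.05 (*Thbs1*), and none was called lower by the same 3 tests. The median log2 fold change of the 8 tested factors was 1.98, and that of all genes tested was 0.0034. In 6 of the 8 both TRC libraries exceeded each parental library, which was so for 30.2% of all genes tested, and in 1 of the 8 both lay below, which was so for 30.4%. In bulk RNA, fewer cells with a transcript and less of it per cell cannot be told apart.

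**Figure D1:**
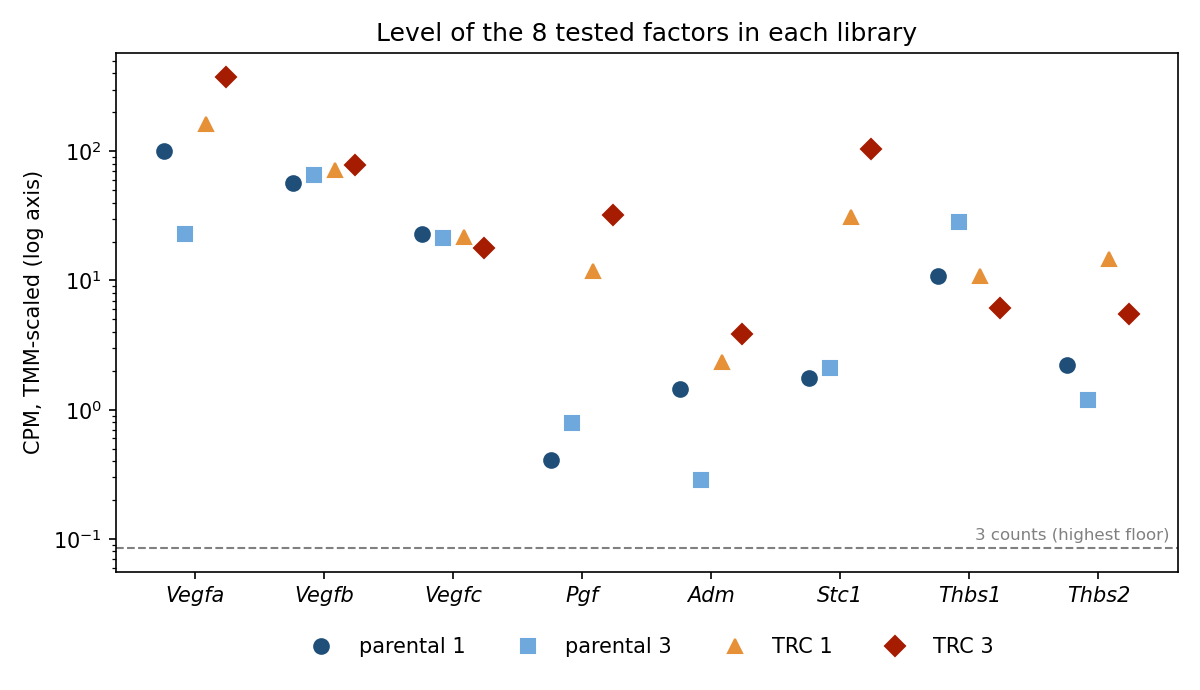
Level of the 8 tested factors in each of the 4 libraries, as TMM-scaled CPM on a log axis, with 1 point per library and a dashed line at the level of 3 counts in the library with the highest such limit. *Pgf* and *Stc1* show the widest gap between control and TRC libraries, whereas for *Vegfa* and *Adm* parental library 1 lies close to TRC library 1.

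HIF-1 binds a short core sequence in the control regions of its targets. Promoter windows of 250 bases before the annotated start were taken from RefSeq (GRCm38.p6), which gave 9 windows for 7 of the factors and none for *Stc1*, *Angptl4* and *Thbs1*. They were searched on both strands for the HIF core letters ACGTG or GCGTG, which share their last 4 letters and which 38.6% of the windows of all genes hold. A match is only a match of letters and no site of binding. Control regions outside these windows were not searched, so a window without a match does not mean a gene without a site. The sequences are printed for *Vegfa* and *Adm*, which moved together across the libraries, and for *Vegfb*, which did not pass the test. For *Pgf*, whose window lies in a 5′ exon of another annotated transcript, 30 bases around its match are printed. Capitals mark the matches, which read CACGC where the core lies on the opposite strand.
Vegfa, chr17:46032378-46032627, minus strand: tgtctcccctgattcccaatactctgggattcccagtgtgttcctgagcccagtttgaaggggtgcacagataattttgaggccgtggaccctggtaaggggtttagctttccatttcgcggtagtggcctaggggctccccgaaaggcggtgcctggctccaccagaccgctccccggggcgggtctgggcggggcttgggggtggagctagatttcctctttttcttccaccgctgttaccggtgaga
Adm, chr7:110627407-110627656, plus strand: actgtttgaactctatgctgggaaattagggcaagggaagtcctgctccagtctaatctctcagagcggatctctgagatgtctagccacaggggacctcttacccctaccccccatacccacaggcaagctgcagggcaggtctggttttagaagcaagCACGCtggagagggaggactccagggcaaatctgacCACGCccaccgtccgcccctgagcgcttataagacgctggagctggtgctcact
Vegfb, chr19:6987652-6987901, minus strand: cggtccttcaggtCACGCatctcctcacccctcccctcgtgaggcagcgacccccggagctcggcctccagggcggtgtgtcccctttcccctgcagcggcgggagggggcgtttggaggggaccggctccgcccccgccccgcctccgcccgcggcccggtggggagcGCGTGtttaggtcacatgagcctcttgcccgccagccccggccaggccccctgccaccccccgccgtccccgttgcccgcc
Pgf, chr12:85177420-85177449, minus strand: gccctgcggggtCACGCgcactcaggtctc
The window at the 5′ end of *Vegfa* holds no match. The other *Vegfa* window holds 2, but it precedes a start 7206 bases inside the gene. That window lies wholly within the gene, and whether its matches fall in exons was not examined. *Adm* has matches 90 and 54 bases before its start, *Vegfb* 237 and 81 bases before, and *Pgf* 124 bases before its start in 1 of its 2 windows. *Stc2*, which had no counts, has 2 matches, and *Vegfc* and *Thbs2* have none. The share of G and C was 59.2% for the *Vegfa* window shown, 56.8% for *Adm* and 76.4% for *Vegfb*, against a median of 52.4% over all windows.

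Among the VEGF-family ligands *Pgf* had the largest change, and *Vegfa* rose from a much higher level. *Pgf* (ENSMUSG00000004791, chromosome 12, 85166635 to 85177790, minus strand, GRCm38) had 18 and 28 counts in parental libraries 1 and 3 and 491 and 1348 counts in TRC libraries 1 and 3. These are 0.405 and 0.793 CPM in the controls and 11.8 and 32.4 CPM in the TRCs, so the groups lay far apart, with the lower TRC library 14.9-fold above the higher control library. The mean was 0.599 ± 0.275 CPM in control cells and 22.1 ± 14.6 CPM in TRCs (SD, n = 2 libraries each). The log2 fold change was 5.21 (SE 0.53, FDR 1.42e-15), which ranked 10 from the top among the genes tested.

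*Vegfa* (ENSMUSG00000023951, chromosome 17, 46016993 to 46032369, minus strand) had 4499 and 808 counts in parental libraries 1 and 3 and 6729 and 15752 counts in TRC libraries 1 and 3. In CPM these were 101 and 22.9 in the controls and 162 and 379 in the TRCs, with means of 62.0 ± 55.4 and 270.2 ± 153 (SD, n = 2). The groups did not overlap, but the parental libraries differed 4.42-fold from each other, about as much as the fitted difference between the groups, 4.35-fold. TRC library 1 was only 1.60-fold above parental library 1, while TRC library 3 was 16.5-fold above parental library 3. The log2 fold change was 2.12 (SE 1.07, FDR 0.00221). Over the alternatives other than leaving out a library the FDR ranged from 0.00208 to 0.163, with 0.0747 in edgeR's quasi-likelihood test, 0.121 in that test with a replicate block and 0.163 in DESeq2's Wald test. Without TRC library 3 the log2 fold change was 1.37 and the FDR of the exact test 0.139, without parental library 1 the log2 fold change was 3.56 and without parental library 3 it was 1.42.

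*Vegfb* (ENSMUSG00000024962, chromosome 19, 6982473 to 6987651, minus strand), a ligand linked to fatty acid uptake and cell survival more than to vessel growth, was measured at 57.2 and 65.5 CPM in parental libraries 1 and 3 and at 71.1 and 77.9 CPM in TRC libraries 1 and 3. Both TRC libraries were above both parental libraries, by a log2 fold change of 0.28 (SE 0.21) that did not pass the exact test (FDR 0.433). *Vegfc* (ENSMUSG00000031520, chromosome 8, 54077606 to 54187096, plus strand), the lymphatic ligand, was at 23.0 and 21.5 CPM in the controls and 21.9 and 18.0 CPM in the TRCs. Its groups overlapped, and its log2 fold change was −0.16 (SE 0.25, FDR 0.783).

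To compare ligands with each other, CPM was divided by the length of the merged exons (RPKM). Per kilobase, *Vegfb* was the most abundant ligand in both parental libraries, at 35.6 and 40.8 RPKM. *Vegfa* came next in parental library 1 at 23.6 RPKM, but in parental library 3 it was at 5.34 RPKM, below *Vegfc* at 8.78. In TRC library 1 *Vegfb* was still the highest at 44.3 RPKM beside 37.8 for *Vegfa*, and in TRC library 3 *Vegfa* was the highest at 88.4 RPKM beside 48.6 for *Vegfb*. The order of these 2 ligands in TRCs therefore depended on the library. The summed level of the 4 ligands was 68.8 and 55.2 RPKM in the controls and 95.1 and 155 RPKM in the TRCs. Within this sum *Vegfa* made up 34.3% and 9.68% in parental libraries 1 and 3 and 39.7% and 56.8% in TRC libraries 1 and 3. *Pgf* contributed 0.203% and 0.495% in the controls and 4.28% and 7.18% in the TRCs, so despite its large fold change it stayed a minor ligand by transcript level. *Vegfc* lay between 7.35 and 9.39 RPKM, above *Pgf* in 3 of the 4 libraries, with *Pgf* at 11.2 RPKM in TRC library 3. All these shares are descriptions of single libraries and were not tested.

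**Figure D2:**
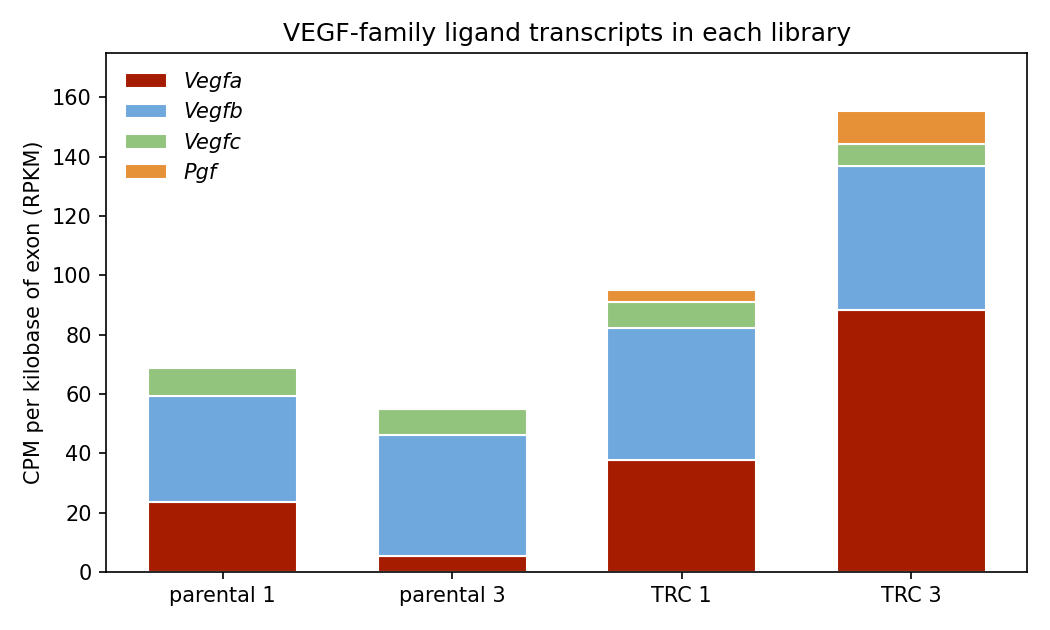
Stacked levels of the VEGF-family ligands in each library, in CPM per kilobase of exon (RPKM), with bars starting at 0. The sum was lowest in parental library 3, at 55.2, and highest in TRC library 3, at 155, a difference mostly in the *Vegfa* segment. Between parental library 1 and TRC library 1 the sum went from 68.8 to 95.1. There *Vegfa* went from 23.6 to 37.8 and *Vegfb* from 35.6 to 44.3. Over all libraries the *Vegfb* segment lay between 35.6 and 48.6.

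Of the VEGF receptors and co-receptors 3 of 5 genes were tested and 1 rose. *Flt1* and *Kdr*, the signalling receptors of VEGF-A, had 0 counts in every library, which allows up to 0.0675 to 0.0850 CPM. *Nrp1*, a co-receptor of VEGF-A and VEGF-B, had 41.4 and 48.1 CPM in the controls and 85.0 and 63.7 CPM in the TRCs (log2 fold change 0.73, FDR 0.0198, not called by the quasi-likelihood test, nor without parental library 1 or TRC library 1). *Nrp2*, a co-receptor of VEGF-C, was the most abundant of the list at 525 to 662 CPM, and its groups overlapped (log2 fold change −0.10, FDR 0.84). *Flt4*, the VEGF-C receptor, was at 1.87 to 4.52 CPM (log2 fold change 0.79, FDR 0.264). Of 5 genes for the processing of VEGF-C 2 were tested. *Furin*, a proprotein convertase, rose from 51.6 and 55.4 CPM to 104 and 73.5 CPM (log2 fold change 0.73, FDR 0.022, not called by the quasi-likelihood test, nor without either parental library or TRC library 1), *Pcsk7* did not pass, and the secreted cofactor *Ccbe1* and the protease *Adamts3* had no counts.

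*Adm* (ENSMUSG00000030790, chromosome 7, 110627661 to 110629820, plus strand) was a low transcript in all libraries. It had 64 and 10 counts in parental libraries 1 and 3 and 98 and 161 counts in TRC libraries 1 and 3, which are 1.44, 0.283, 2.36 and 3.87 CPM. The TRC libraries were the higher ones, by 1.64-fold at the nearest, while parental library 1 was 5.08-fold above parental library 3. The log2 fold change was 1.83 (SE 0.78, FDR 0.0333 in the exact test). Of 8 alternatives that kept all libraries 3 called *Adm*, with FDR between 0.0288 and 0.144. Among the fits with a library left out it was called only without parental library 1 (log2 fold change 3.44, FDR 0.000161), and the FDR was 0.328 without parental library 3, 0.0739 without TRC library 1 and 0.320 without TRC library 3.

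Of 10 genes for adrenomedullin receptors and relatives 4 were tested, and *Pam* was the 1 that rose. *Pam* encodes the enzyme that amidates adrenomedullin and other peptides, and its level was 38.0 and 43.0 CPM in the controls and 82.1 and 89.2 CPM in the TRCs (log2 fold change 1.08, SE 0.21, FDR 5.91e-05). The receptor *Calcrl* was at 2.38 to 4.68 CPM and its partner *Ramp2* at 1.03 to 2.84 CPM, and for both the groups overlapped. The scavenging receptor *Ackr3* was at 5.38 to 14.2 CPM, also with overlap. *Adm2* had no counts in any library.

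*Stc1* (ENSMUSG00000014813, chromosome 14, 69029238 to 69041804, plus strand) rose about as much as *Pgf*. Its counts were 78 and 74 in parental libraries 1 and 3 and 1281 and 4360 in TRC libraries 1 and 3, which are 1.75, 2.097, 30.8 and 105 CPM. The parental libraries were close to each other and both TRC libraries were far above them, 14.7-fold at the nearest and 59.7-fold at the farthest. The means were 1.93 ± 0.242 and 67.8 ± 52.3 CPM (SD, n = 2), with a log2 fold change of 5.14 (SE 0.47, FDR 2.77e-20). Per kilobase *Stc1* reached 25.0 RPKM in TRC library 3. *Stc1* and *Pgf* were called in every alternative with all libraries in which they were tested. Leaving out TRC library 3 lowered their log2 fold changes most, to 3.99 for *Stc1* and 4.30 for *Pgf*. Without TRC library 1 that of *Stc1* was 5.75. Fits with a library left out kept the genes that had passed the filter on all 4 libraries. *Pgf* reached 1 CPM only in its TRC libraries, so without either of them it would not have passed that filter.

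The paralog *Stc2* (ENSMUSG00000020303, chromosome 11, 31357307 to 31370074, minus strand) had 0 counts in all 4 libraries. Of the stanniocalcin targets, the proteases *Pappa* and *Pappa2* had no counts either. The PAPP-A substrate *Igfbp4*, an IGF binding protein, was at 125 and 197 CPM in the controls and 155 and 178 CPM in the TRCs (log2 fold change 0.05, FDR 0.927). *Angptl4* (ENSMUSG00000002289, chromosome 17, 33773750 to 33781830, minus strand) had 1 count in parental library 3 and 0 in the other libraries. Neither *Stc2* nor *Angptl4* was detectable in TRCs at this depth, at a limit of 3 counts or 0.0721 and 0.0722 CPM in the TRC libraries. Of 9 targets and relatives of ANGPTL4, 3 were tested and 0 were called, by edgeR's exact and quasi-likelihood tests and by DESeq2, and 0 had an unadjusted p under 0.05. *Lpl*, the lipase that ANGPTL4 inhibits, had 1 count in all libraries together.

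The log2 fold changes of the thrombospondins had opposite signs, and the rise of *Thbs2* was the one that passed the test. *Thbs2* (ENSMUSG00000023885, chromosome 17, 14665500 to 14694235, minus strand) had 99 and 42 counts in parental libraries 1 and 3 and 605 and 229 counts in TRC libraries 1 and 3, or 2.23, 1.19, 14.6 and 5.50 CPM. Every TRC library was above every control library, by 2.47-fold to 12.2-fold, and here TRC library 1 was the highest. The means were 1.71 ± 0.733 and 10.03 ± 6.40 CPM (SD, n = 2), and the log2 fold change was 2.55 (SE 0.54, FDR 0.000219). Without TRC library 1 it was 1.66 and no longer passed the test (FDR 0.0756).

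*Thbs1* (ENSMUSG00000040152, chromosome 2, 118111876 to 118127133, plus strand) had 483 and 1009 counts in parental libraries 1 and 3 and 451 and 257 counts in TRC libraries 1 and 3. In CPM, parental library 1 and TRC library 1 were nearly equal (10.9 and 10.8), parental library 3 was the highest at 28.6 and TRC library 3 the lowest at 6.18. The log2 fold change of −1.21 (SE 0.47) did not pass the exact test (FDR 0.0581), and over the other alternatives with all libraries the FDR was 0.0521 to 0.233. Without parental library 1 it passed (log2 fold change −1.75, FDR 0.000611), and without parental library 3 the log2 fold change was −0.35. Per kilobase *Thbs1* was 5.63 and 27.7 times *Thbs2* in parental libraries 1 and 3 and 0.860 and 1.29 times *Thbs2* in TRC libraries 1 and 3. That ratio was lower in both TRC libraries, as a description without a test.

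Of 10 thrombospondin relatives and receptors 7 were tested, 3 rose and 0 fell. The integrin subunit *Itgb3* rose from 14.6 and 6.72 CPM to 38.4 and 40.2 CPM (log2 fold change 1.88, FDR 9.6e-06), and its partner *Itgav* rose by 0.70 on the log2 scale (FDR 0.0173). *Cd47*, the thrombospondin receptor on most cells, rose from 22.0 and 29.2 CPM to 46.3 and 72.2 CPM (log2 fold change 1.21, FDR 0.000408). Without TRC library 3, 1 gene of the list was called higher. With a replicate block in the quasi-likelihood test 2 were, and with no filter on low counts 4. *Cd36*, the receptor for the anti-angiogenic signal, had 1 and 0 counts in the controls and 9 and 16 counts in the TRCs. It was too low to pass the filter of the main test.

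**Figure D3:**
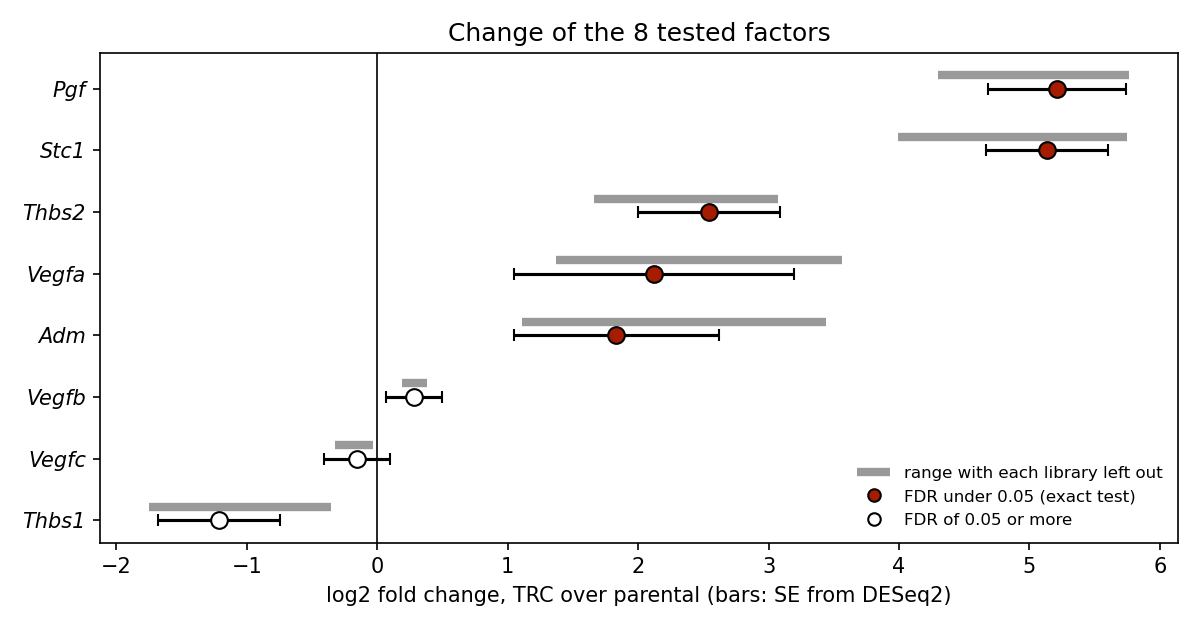
Log2 fold change of the 8 tested factors, TRC over parental, with black bars for the SE from DESeq2 and grey bars for the range when each library is left out. *Pgf* and *Stc1* stay at 3.99 or more in every such fit, whereas the ranges of *Adm* (1.11 to 3.44) and *Vegfa* (1.37 to 3.56) are wide. Such fits kept the genes filtered on all libraries, a filter that *Pgf* passed only through its TRC libraries.

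Like the factors called, most intracellular genes of the hypoxia response were higher in TRCs than in control cells. Of 16 intracellular hypoxia targets 14 rose and 1 fell, with a median log2 fold change of 2.08. The mitophagy receptor *Bnip3* rose by 5.13 on the log2 scale, *Ankrd37* by 5.58, the pyruvate dehydrogenase kinase *Pdk1* by 4.39 and the oxidoreductase *Ero1l* by 3.18, while the glycolytic regulator *Pfkfb3* fell by 0.72, a call not made by the quasi-likelihood test, nor without parental library 1 or either TRC library. The summed level of the list was 2692 and 3167 CPM in parental libraries 1 and 3 and 8139 and 16004 CPM in TRC libraries 1 and 3. Of 10 genes of oxygen sensing 9 were tested and 4 rose, namely the prolyl hydroxylases *Egln3* (log2 fold change 4.05) and *Egln1* (2.88), *Vhl* (1.13) and *Hif1a* itself (0.96). In the quasi-likelihood test with a replicate block 3 genes of that list were called higher. Beside 14 of 16 intracellular targets, 5 of the 10 secreted factors were called higher, and *Stc2* and *Angptl4* had almost no counts. The difference between these lists was not tested.

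Of 30 other secreted pro-angiogenic factors 11 were tested, 3 rose and 1 fell, and 12 had at most 3 counts in every library. *Apln*, the ligand of the apelin receptor, rose from 0.270 and 0.765 CPM to 3.10 and 14.3 CPM (log2 fold change 4.08, FDR 5.25e-06), *Efna1* by 1.54 (FDR 0.039) and *Spp1*, osteopontin, by 1.47 (FDR 0.0416). *Ccn1*, a matricellular protein, fell by 0.92 on the log2 scale (FDR 0.011). *Apln* and *Efna1* were tested only through their TRC libraries, since both parental libraries were below 1 CPM. In the quasi-likelihood test and in DESeq2 1 gene of this list was called higher and 1 lower. The same counts were found with a filter of 1 CPM in 3 or more libraries, with no filter and with library size only. Without parental library 3, 1 was called higher, and the number called lower was 2 without TRC library 1 and 0 without TRC library 3. Of 16 secreted anti-angiogenic factors 13 were tested and 0 were called by edgeR's exact test, with 2 lower and 0 higher at an unadjusted p under 0.05, and 0 by the quasi-likelihood test and DESeq2. Without parental library 1, 3 were called higher and 1 lower, and without either TRC library 1 was called lower. The median log2 fold change of that list was −0.16. The 2 lowest p-values belonged to *Cxcl10* (log2 fold change −1.13, FDR 0.0706) and *Vash1* (−1.20, FDR 0.0763).

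The libraries of one group differed strongly for several of the factors. *Vegfa* was 2.12 higher on the log2 scale in parental library 1 than in parental library 3, a difference that 0.209% of the genes tested exceeded, against a median absolute difference of 0.25. For *Adm* this difference was 1.31 (exceeded by 1.55% of the genes) and for *Thbs1* −1.36 (exceeded by 1.35%). In the TRCs replicate 3 was above replicate 1 by 1.22 for *Vegfa*, 1.42 for *Pgf* and 1.75 for *Stc1*, which 1.62%, 0.941% and 0.374% of the genes exceeded. For *Thbs2* the same difference was −1.33, exceeded by 1.24% of the genes. *Vegfa* and *Adm* shared the order parental library 3, parental library 1, TRC library 1 and TRC library 3 from low to high, as did 9.48% of all genes tested and 7 of the 16 intracellular hypoxia targets.

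Differences between libraries of one group were also computed for other gene lists. The 16 intracellular hypoxia targets had a median difference of −0.010 between parental libraries 1 and 3, with 8 of 16 higher in replicate 1, and of 0.99 between TRC libraries 3 and 1, with 16 of 16 higher in replicate 3. The 10 genes of ATF4 and the unfolded protein response, which answer to amino acid shortage and misfolded protein, had medians of 1.31 between the parental libraries (8 of 10 higher in replicate 1) and 0.53 between the TRC libraries (10 of 10 higher in replicate 3). *Trib3*, a target of ATF4, was at 239 and 25.4 CPM in parental libraries 1 and 3 and at 24.9 and 84.2 CPM in TRC libraries 1 and 3, and *Ddit3* at 139, 18.8, 31.0 and 54.8 CPM. *Hspa5* and *Xbp1* of the same list went the other way between the controls. They were at 709 and 67.2 CPM in parental library 1 and at 1670 and 82.5 CPM in parental library 3. Between the groups 1 gene of that list was called lower, *Atf3* (log2 fold change −1.57, FDR 0.042, with overlapping groups and no call in the quasi-likelihood test), and none was called higher in the exact test (1 in DESeq2's Wald test), with a median log2 fold change of −0.63. Without parental library 3, 6 genes of the list were called lower, and 0 were with any other library left out. Without parental library 1, 1 gene was called higher. What part these genes have in the levels of *Vegfa* and *Adm* was not tested.

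**Figure D4:**
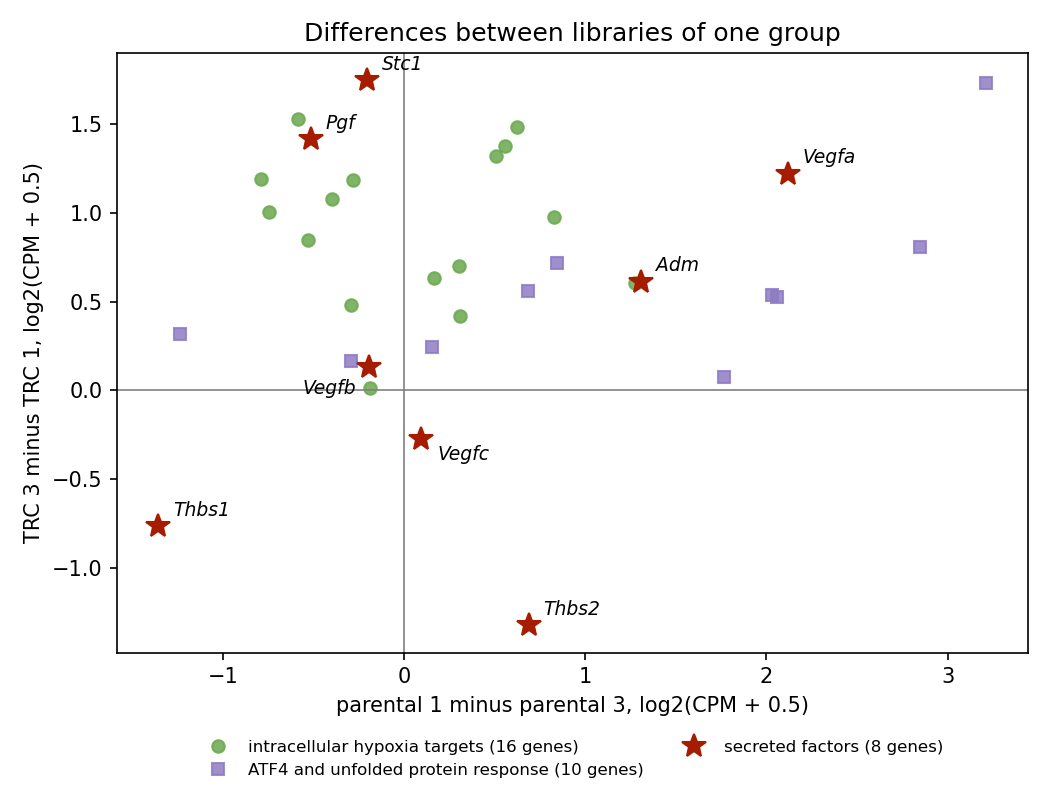
Difference between parental libraries 1 and 3 (horizontal axis) against that between TRC libraries 3 and 1 (vertical axis), both in log2(CPM + 0.5), for the 8 tested factors (stars), 16 intracellular hypoxia targets (circles) and 10 genes of ATF4 and the unfolded protein response (squares). All 16 hypoxia targets lie above 0 on the vertical axis and spread around 0 on the horizontal one, and *Vegfa* lies farthest right among the factors, at 2.12.

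The genes whose levels followed *Vegfa* and *Pgf* most closely over the 4 libraries were found by the Euclidean distance between log2(CPM + 0.5) values centred on their mean. Nearest to *Vegfa* was *Txnip*, an inhibitor of thioredoxin, at a distance of 0.167, with 75.1 and 15.9 CPM in parental libraries 1 and 3 and 125 and 252 CPM in TRC libraries 1 and 3. *Pygl*, the liver form of glycogen phosphorylase (0.556), and the desmosomal plakophilin *Pkp2* (0.723) came next. Nearest to *Pgf* were *Smtnl2* (0.384), *Stc1* itself (0.476) and *Selenbp1* (0.478). With 4 libraries these distances are descriptions only.

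The annotation places antisense genes over 3 of the factors. *Gm41192* shares 229 exon bases with *Stc1*, *Gm29233* shares 208 with *Thbs1*, and *Gm28863* overlaps *Adm* without sharing exon bases. None of them is among the genes counted. The libraries were stranded, but the strand setting of the counting is not given in the sources used here, so reads of a gene and its antisense partner may not have been separated.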

How the data were processed

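RNA-seq counts of 2 parental B16F1 (control) and 2 TRC libraries were analysed, grouped by the sample labels. The authors trimmed single-end reads of stranded libraries (101 cycles) using Trimmomatic 0.35, mapped them to GRCm38 using TopHat2 2.1.0 and Ensembl 75 annotation, and ran htseq-count. What they deposited is 1 raw count per gene and library, not normalized, and the mode and strand setting of the counting are not given in the sources used here. Reads with more than 1 alignment were not counted, so genes with near-identical copies may be undercounted.

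Depth was 35948295 to 43511554 counts on genes per library. Rows that name no gene were left out of library sizes, namely 2.95% to 4.25% of all alignments on no feature, 0.825% to 0.955% ambiguous and 15.2% to 25.2% not unique. Following the study's methods, genes reaching 1 CPM in 2 or more samples were kept (11483), TMM factors (0.957 to 1.04) were computed, and groups were compared with the exact test of edgeR 4.0.16 under R 4.3.3 with common and tagwise dispersions, a prior count of 0.125 and adjustment by Benjamini and Hochberg across these genes. The biological coefficient of variation was 21.2%. SE came from DESeq2 1.42.0. Positions and exon lengths came from GENCODE M21 (GRCm38), which held 37607 of the identifiers, and promoter windows from RefSeq. For differences between single libraries, 0.5 was added to CPM before log2. The scripts were tested on simulated data. Plots were drawn with matplotlib 3.10.9.

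All 10 factors are named. From each list the genes with the smallest FDR (at most 4) are named, plus receptors and direct partners of the factors. *Pfkfb3*, *Trib3*, *Ddit3*, *Hspa5* and *Xbp1* were chosen after their values were seen. The 10 factors, the gene lists and the tests were chosen with earlier results of these data known. Alternatives were 3 other filters on low counts, other normalizations, edgeR's quasi-likelihood test, fitted once without and once with a replicate block, DESeq2's Wald test and each library left out in turn.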

Additional observations from a re-analysis of the deposited data

Results flagged for a closer look

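Alignments that were not unique, which entered no comparison, made up 18.3% of all alignments in TRC library 1 and 25.2% in TRC library 3, above the 15.2% and 17.1% in parental libraries 1 and 3. Their part in the levels of the secreted factors was not tested. With 2 libraries per group, no group was large enough to test for an outlying library.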

How the results depend on the processing

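No log2 fold change of a factor changed sign under the alternatives run. The ATF4 list went from 0 genes higher and 1 lower to 1 higher and 0 lower without parental library 1. Under edgeR's quasi-likelihood test without the replicate block, with the block and under DESeq2's Wald test, 3 factors in place of 5 were called higher (*Pgf*, *Stc1* and *Thbs2* each time). The log2 fold change of *Vegfa* was then 2.12, 2.35 and 2.13 and that of *Adm* 1.83, 2.06 and 1.85, none past the threshold. *Adm* also missed it without a filter on low counts (1.801) and with library size only (1.77, FDR 0.05005). Genes called higher over the whole table fell from 1012 to 567 (quasi-likelihood) and 477 (block), and genes called lower from 810 to 487 and 308. Over the pathway lists 27 genes were called higher and 3 lower, the latter 1 without a filter, 1 with quasi-likelihood and 0 with the block. Asking for 1 CPM in 3 or more libraries removed *Pgf*.

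Leaving out each library in turn gave 500 to 1078 genes higher and 269 to 854 lower, 3 to 5 factors higher and 0 to 1 lower, and 22 to 27 pathway genes higher and 1 to 8 lower. The log2 fold change then ranged from 1.37 to 3.56 for *Vegfa*, 1.11 to 3.44 for *Adm*, 1.66 to 3.07 for *Thbs2* and −1.75 to −0.35 for *Thbs1*. The fewest genes (773) were called without TRC library 1 and without TRC library 3, against 1822 with all libraries. Among the counts called per list and the levels per kilobase, 255 kept their value within the limits set and 41 moved. Many of the 255 were lists with 0 genes called in both fits, which says little about stability. In the fits with a library left out, a group has 1 library, assumed to vary like the other group. The filter on low counts was not repeated in them.

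Across genes, the deviations from the group means of libraries with the same number had a correlation of r = 0.027, so the numbers were not taken to pair the samples. The replicate block moved the total from 1054 genes in the same test without it to 785. The cause of these changes was not tested. *Adm* had 10 to 161 counts per library, the lowest of the factors called.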
